A study of Mus musculus with 7 samples.

Results

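Ly6a encodes Sca-1, the surface antigen that defines LSK cells (Lineage-, Sca-1+, c-Kit+), a small fraction of bone marrow in which blood stem cells and early progenitors are found. Open chromatin at Ly6a and at 6 other genes of the Ly6 cluster on mouse chromosome 15, Ly6c1, Ly6c2, Ly6d, Ly6e, Ly6i and Ly6f, was read from ATAC-Seq peaks, in which a transposase cuts and tags accessible DNA. The 7 genes, of 55413 in the annotation, were chosen by name. A peak was taken when its summit lay in the body of one of them or within 30 kb of it. Across the libraries this gave 45 to 55 peaks, of 137963 to 151552 in a whole list, and 46 of 137701 consensus sites.

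The samples were 3 Ctrl and 4 WTAkita libraries of adult C57/BL6 mice, each prepared from 50000 sorted LSK cells. WTAkita mice were wild-type offspring, without the Akita mutation of Ins2, born to diabetic Ins2 Akita/+ dams. Ctrl mice were wild-type offspring of normal pregnancies. The study fed both Ins2 Akita/+ females and their wild-type littermates a high-fat diet before mating and kept the offspring on regular diet. The comparison asks whether diabetes in the mother is associated with a different chromatin state in the adult offspring. Marrow was pooled for sorting. How many mice stand behind each library is not stated in the labels or methods used. The p-values therefore reflect only how libraries of one group vary, which may be technical. The sort selected for Sca-1 with an antibody to Ly-6A/E, which are allelic products of Ly6a and not of the separate gene Ly6e, and removed Gr-1+ cells with an antibody to the Ly6g and Ly6c products. All 7 libraries therefore come from cells gated on proteins of this cluster.

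The Ly6 genes encode small proteins of the LY6/uPAR family, a disulfide-bonded fold usually held on the outer membrane by a glycosylphosphatidylinositol (GPI) anchor. Sca-1 and Ly6c are inducible by interferons in blood cells. Ly6c marks monocytes and several lymphocyte and progenitor subsets, Ly6d is used to mark B lineage commitment in lymphoid progenitors, and Ly6e is widely expressed and known for effects on viral entry. The mouse cluster grew by tandem duplication, so several of its genes and flanking elements are near copies of each other.

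Start sites with duplicated sequence are shown first, because they limit how each gene can be read. The sequence of the Ly6a start site region, chr15:74997697-74998253 (mm10), matched that of Ly6c1, chr15:75048593-75049134, at 98.7% of 556 aligned bases. Of the 150-base windows in the Ly6a region, 302 of 408 (74.0%) occurred again without any mismatch on the chromosome, and in the Ly6c1 region 302 of 393 (76.8%). The share was 16.8% at Ly6c2 and 0% at Ly6d, Ly6e, Ly6i and Ly6f. A read that lies wholly in such a stretch matches both places. The mate of a read pair may lie outside it, how many pairs were placed in that way was not tested, and no filter on mapping quality is named in the sources used here. Reads trimmed to under 150 bases and copies with mismatches were not counted. A share of 0% therefore does not exclude reads that match elsewhere. RefSeq promoter windows (GRCm38.p6) were matched for 3 of the 7 genes, Ly6c1, Ly6c2 and Ly6f. Their 250 bases before the start, printed to show the shared letters, carry in capitals GAGGAAGT, the letters of a PU.1 motif, and CAGCTG, an E-box:
Ly6c1, chr15:75048838-75049087, minus strand: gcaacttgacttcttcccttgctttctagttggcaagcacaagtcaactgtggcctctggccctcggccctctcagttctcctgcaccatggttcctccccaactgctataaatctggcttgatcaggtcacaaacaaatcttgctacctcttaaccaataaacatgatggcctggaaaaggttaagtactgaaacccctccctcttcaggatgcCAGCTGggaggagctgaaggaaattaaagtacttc
Ly6c2, chr15:75111972-75112221, minus strand: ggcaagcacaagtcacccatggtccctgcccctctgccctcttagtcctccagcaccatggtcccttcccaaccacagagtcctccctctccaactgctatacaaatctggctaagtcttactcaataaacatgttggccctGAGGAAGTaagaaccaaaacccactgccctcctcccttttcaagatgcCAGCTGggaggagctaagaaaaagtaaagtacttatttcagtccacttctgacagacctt
Ly6f, chr15:75268171-75268420, plus strand: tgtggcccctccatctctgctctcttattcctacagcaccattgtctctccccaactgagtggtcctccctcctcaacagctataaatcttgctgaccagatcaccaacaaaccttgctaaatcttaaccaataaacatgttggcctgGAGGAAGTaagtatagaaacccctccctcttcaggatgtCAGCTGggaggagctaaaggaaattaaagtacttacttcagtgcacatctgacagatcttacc

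All 3 windows hold CAGCTG near the start, and Ly6c2 and Ly6f hold GAGGAAGT before it while Ly6c1 does not. Just after the start all 3 share a further GAGGAAGT, shown in capitals in 30 bases of each gene:
Ly6c1, chr15:75048772-75048801, minus strand: accttgtctgaGAGGAAGTaaggactggtg
Ly6c2, chr15:75111927-75111956, minus strand: acctggtcagaGAGGAAGTaaggactggtg
Ly6f, chr15:75268433-75268462, plus strand: acctggtcagaGAGGAAGTaaggactggtg
In the accessible sites of Ly6a and Ly6c1 these letters began 5 and 7 bp from the summit. Counted along the chromosome, these letters began at -48 and 86 bp from the summit at Ly6c2, and at -43 and 82 bp at Ly6f. On either strand they occur in 3.20% of all 32851 RefSeq promoter windows of 300 bases, and CAGCTG in 16.3%. A match of letters is a description and not evidence of binding.

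Peaks were found around every one of the 7 genes in every library. Within 30 kb there were 9 to 12 peaks per library at Ly6d, 15 to 17 at Ly6e, 14 to 18 at Ly6i, 12 to 14 at Ly6a, 6 to 9 at Ly6c1, 7 to 11 at Ly6c2 and 1 at Ly6f. The windows of Ly6e, Ly6i, Ly6a and Ly6c1 overlap, so their counts share peaks. Over the cluster there were 48, 55 and 46 peaks in Ctrl, and 47, 45, 49 and 48 in WTAkita. The means were 49.7 ± 4.73 (SD, n = 3) and 47.2 ± 1.71 (SD, n = 4), with overlapping ranges. Without Ctrl replicate 2, the library with the most peaks, WTAkita exceeded Ctrl by 0.25 peaks in place of the 2.42 fewer over all libraries. Peaks merged into 61 places, of which 37 (60.7%) carried a peak in all 7 libraries, against 61.3% of 176367 places in the whole series. None had a peak in every library of one group and in none of the other. Of the 176367 places in the whole series, 198 had this pattern for Ctrl and 162 for WTAkita. At so small a share, none among 61 places does not set the cluster apart.

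**Figure D1:**
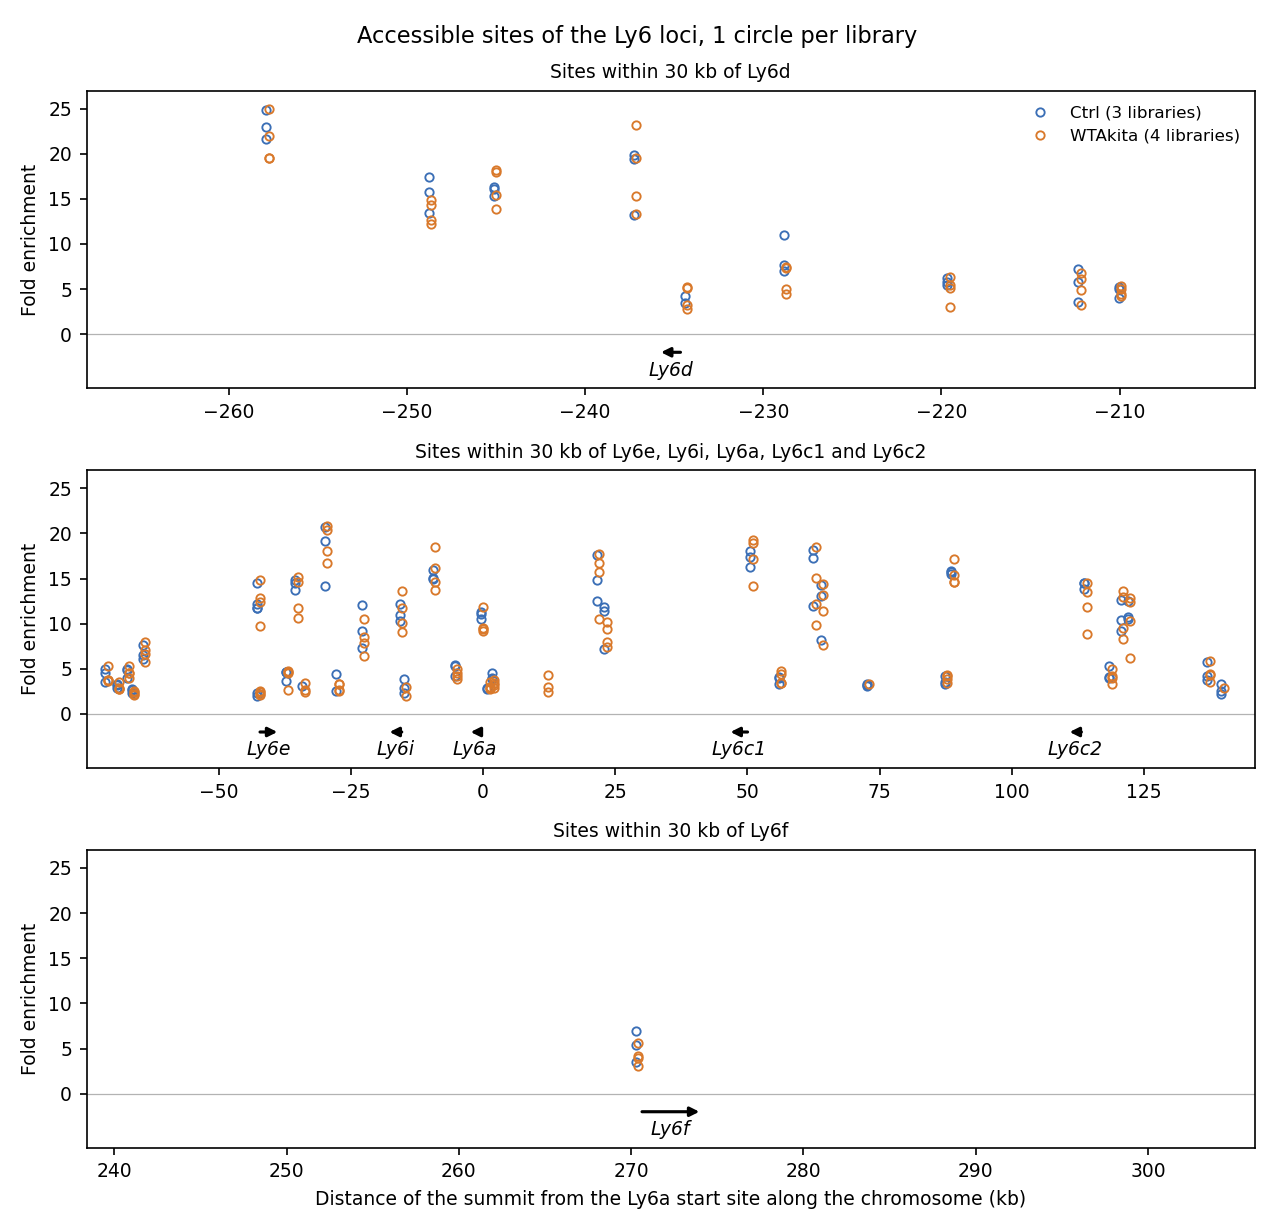
Fold enrichment of the accessible sites (vertical axis) against the distance of their summit from the Ly6a start site along the chromosome in kb (horizontal axis), with 1 circle per library with a peak, Ctrl in blue and WTAkita in orange, and arrows for the gene bodies and their direction. Blue and orange circles overlap at the strong sites, and Ly6f has a single site, at 3.03 to 6.97.

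The fold enrichment of a peak is the read pileup at its summit divided by the background that surrounds it in that library, with 1 added to both, as the authors' peak caller gave it. At a given pileup, the added 1 lowers the ratio most where the background is low. By this measure the start sites separated into a high group, Ly6c1, Ly6c2, Ly6e and Ly6a, and a low group, Ly6f, Ly6d and Ly6i. Ly6c1 had 16.3, 18.0 and 17.4 in Ctrl and 14.1, 17.2, 19.3 and 19.0 in WTAkita. Ly6c2 (chr15:75111762-75112292) had 14.5, 13.9 and 14.5 in Ctrl and 8.87, 11.9, 14.5 and 13.5 in WTAkita. Both Ly6c genes encode forms of the Ly6C antigen, and WTAkita replicate 1 was the lowest library at both. That library was also the lowest at Ly6e and Ly6f, though not at Ly6a. Its median over all sites tested, 6.66, was the lowest of the libraries as well. Ly6e (chr15:74954821-74956053) had 11.7, 12.2 and 14.5 in Ctrl and 9.74, 12.8, 14.8 and 12.4 in WTAkita. The Ly6e site was the widest of the start sites, covered its first untranslated exon, and its summit window held 18 CpG dinucleotides, where those of Ly6a, Ly6c1, Ly6c2 and Ly6f held 0 and the median of sites near a start was 12.0.

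The Ly6a start site itself measured 10.5, 11.2 and 11.0 in the Ctrl libraries, and 9.50, 9.17, 9.46 and 11.8 in the WTAkita libraries. Of the WTAkita libraries, 3 lay below all Ctrl libraries and replicate 4 lay above them, so the groups overlapped. The summit fell in the untranslated first exon, 159 bp after the start. Among the peaks of its library the Ly6a start site ranked at percentile 71.1 on average and at 66.2 in the lowest library.

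Start sites of the low group ranked lower, at mean percentile 35.01 for Ly6f, 27.3 for Ly6d and 11.5 for Ly6i. Ly6f (chr15:75268261-75268556) had 3.52, 5.42 and 6.97 in Ctrl and 3.03, 3.99, 5.65 and 4.14 in WTAkita, its only peak within 30 kb. Ly6d (chr15:74763577-74763866) was called in 6 of 7 libraries, with no peak in Ctrl replicate 1 and values of 2.82 to 5.18 in the others. Ly6i (chr15:74983233-74983446) was called in 5 of 7, at 2.03 to 3.93. An intronic site of Ly6i, 967 bp after its start (chr15:74982204-74982878), was stronger, at 10.3, 12.2 and 11.0 in Ctrl and 9.03, 10.05, 13.6 and 11.8 in WTAkita.

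Ordered by mean, Ly6c1 (17.3 ± 1.73, SD, n = 7) stood above Ly6c2 (13.1 ± 2.08) in 7 of 7 libraries, and Ly6e (12.6 ± 1.72) above Ly6a (10.4 ± 1.03) in 7 of 7. Ly6c2 and Ly6e did not differ beyond their spread, with Ly6c2 higher in 4 of 7. Ly6a stood above Ly6f (4.67 ± 1.39) in 7 of 7. Ly6f was above Ly6d in 5 of the 6 libraries with both, and Ly6d above Ly6i in 3 of 4. This order depended on the local background. The summit pileup, in reads, was 85 to 132 at Ly6c1 and 83 to 120 at Ly6a, with Ly6c1 higher in 5 of 7 libraries and a mean ratio of 1.09 ± 0.15 (SD), whereas the ratio of the fold enrichments was 1.68 ± 0.20. The promoters of Ly6a and Ly6c1 are near-identical, so a read of Ly6a can be placed at Ly6c1 or the reverse. Their values are therefore not separate measurements, and how reads were divided between them was not tested. By pileup Ly6e was the highest, at 147 to 220 reads, and Ly6c2 had 43 to 91.

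**Figure D2:**
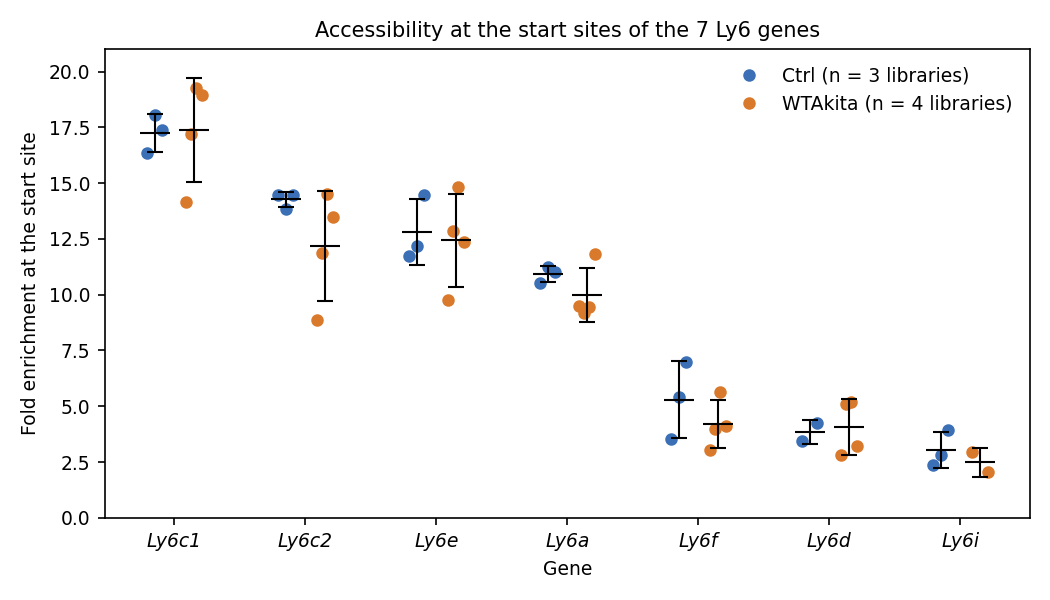
Fold enrichment (vertical axis) at the start site of each gene (horizontal axis), with 1 point per library with a peak, Ctrl in blue and WTAkita in orange, and black bars for the mean and SD of each group. The Ctrl and WTAkita points overlap at every gene with 3 or more points per group, and 3 of the 4 WTAkita points of Ly6a lie below its Ctrl points.

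The strongest sites of the cluster lay outside the start sites. The highest was 23414 bp downstream of the Ly6d start (chr15:74739877-74740488, intergenic), at 21.7, 23.0 and 24.9 in Ctrl and 19.5, 19.5, 22.0 and 24.9 in WTAkita. The highest site within 30 kb of Ly6a, Ly6e and Ly6i lay between Ly6e and Ly6i, 13321 bp from the Ly6e start (chr15:74968165-74968696), at 14.2, 20.8 and 19.2 in Ctrl and 16.7, 18.1, 20.8 and 20.3 in WTAkita. Neither has a copy elsewhere in the cluster. A wide site between Ly6i and Ly6a (chr15:74988251-74989738) had 15.005, 15.9 and 15.1 in Ctrl and 13.8, 14.6, 18.5 and 16.1 in WTAkita. For Ly6c1 the start site was the strongest, and for Ly6c2 it was a site 25162 bp downstream of its start (chr15:75085958-75087147), with 15.8, 15.8 and 15.5 in Ctrl and 14.6, 14.7, 17.2 and 15.4 in WTAkita. Over the 7 start sites the median fold enrichment was 10.4, and over the other 39 sites it was 5.33. The other sites include start sites of genes that are not members, such as that of Lynx1 in the Ly6d window, at 16.1.

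WTAkita was then compared with Ctrl by limma on normalized log2 fold enrichment, fitted over 111630 sites called in all 7 libraries. Of the 46 Ly6 sites, 38 entered the fit and 8 lacked a peak in at least 1 library, among them the Ly6d and Ly6i start sites. No Ly6 site had an adjusted p under 0.05 (0% of all sites did) and none an unadjusted p under 0.05 (3.73% of all sites). The groups did not overlap at 0 of 38, against 4.71% of all sites. WTAkita was above Ctrl at 17 sites and below at 21, with a median difference of -0.03 on the log2 scale (0.01 over all sites). With summit pileup scaled by the background of each library in place of fold enrichment, the split was 8 above and 30 below. On that scale the median of the Ly6 sites was -0.18 and that of all sites -0.12. The 95% confidence intervals had a median half-width of 0.31 log2 units. An estimated difference smaller than this could not be told from 0 at a site of median precision. A true difference larger than this could also be missed, since p-values were adjusted over 111630 sites. ATAC-Seq of a sorted pool cannot tell a change in every cell from a change in the share of cells with an open site.

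At the Ly6a start site WTAkita differed from Ctrl by -0.06 on the normalized log2 scale (SE 0.12, 95% confidence interval -0.32 to 0.20, limma adjusted p = 1.00). On deposited values the means were 10.9 ± 0.37 (SD, n = 3) and 9.99 ± 1.22 (SD, n = 4), and the exact permutation test over 35 splits gave p = 0.229, two-sided, where 0.0571 is the smallest it allows. The sign turned without WTAkita replicate 3 (0.0155). Since a read can match either near-identical promoter, the summit pileups of Ly6a and Ly6c1 were also summed, as a multiple of the background. The sums were 50.9, 60.5 and 58.3 in Ctrl and 43.0, 47.1, 59.8 and 64.9 in WTAkita, and the groups overlapped (exact permutation test, two-sided, p = 0.686).

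At the other start sites tested every 95% confidence interval held 0. The log2 differences were 0.08 at Ly6c1 (-0.09 to 0.24), 0.03 at Ly6e (-0.22 to 0.28), -0.17 at Ly6c2 (-0.41 to 0.06) and -0.26 at Ly6f (-0.74 to 0.21), each with a limma adjusted p of 1.00. The direction at Ly6e turned without Ctrl replicate 2 (-0.051), WTAkita replicate 2 (-0.0209) or WTAkita replicate 3 (-0.0127). Without Ctrl replicate 1 the difference at Ly6f was -0.48 and at Ly6c2 -0.10, and without Ctrl replicate 3 that at Ly6f was -0.05. Without WTAkita replicate 1, that at Ly6c2 was -0.11 and at Ly6f -0.17. The lowest p of the cluster belonged to a site 5641 bp upstream of Ly6d (chr15:74769081-74769682), with 7.66, 11.0 and 6.97 in Ctrl and 4.44, 7.41, 7.30 and 5.01 in WTAkita. It differed by -0.44 (95% confidence interval -0.90 to 0.01, limma adjusted p = 1.00), and the groups overlapped.

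The difference farthest from 0, -0.70, came from 1 library. At a site before the Ly6e start (chr15:74954316-74954756) Ctrl replicate 1 had 11.7 and the other 6 libraries 1.97 to 2.50. In Ctrl replicate 1 a single peak of 1715 bp covered both this site and the Ly6e start site, whereas in the other libraries the peak at this site was 264 to 473 bp long.

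**Figure D3:**
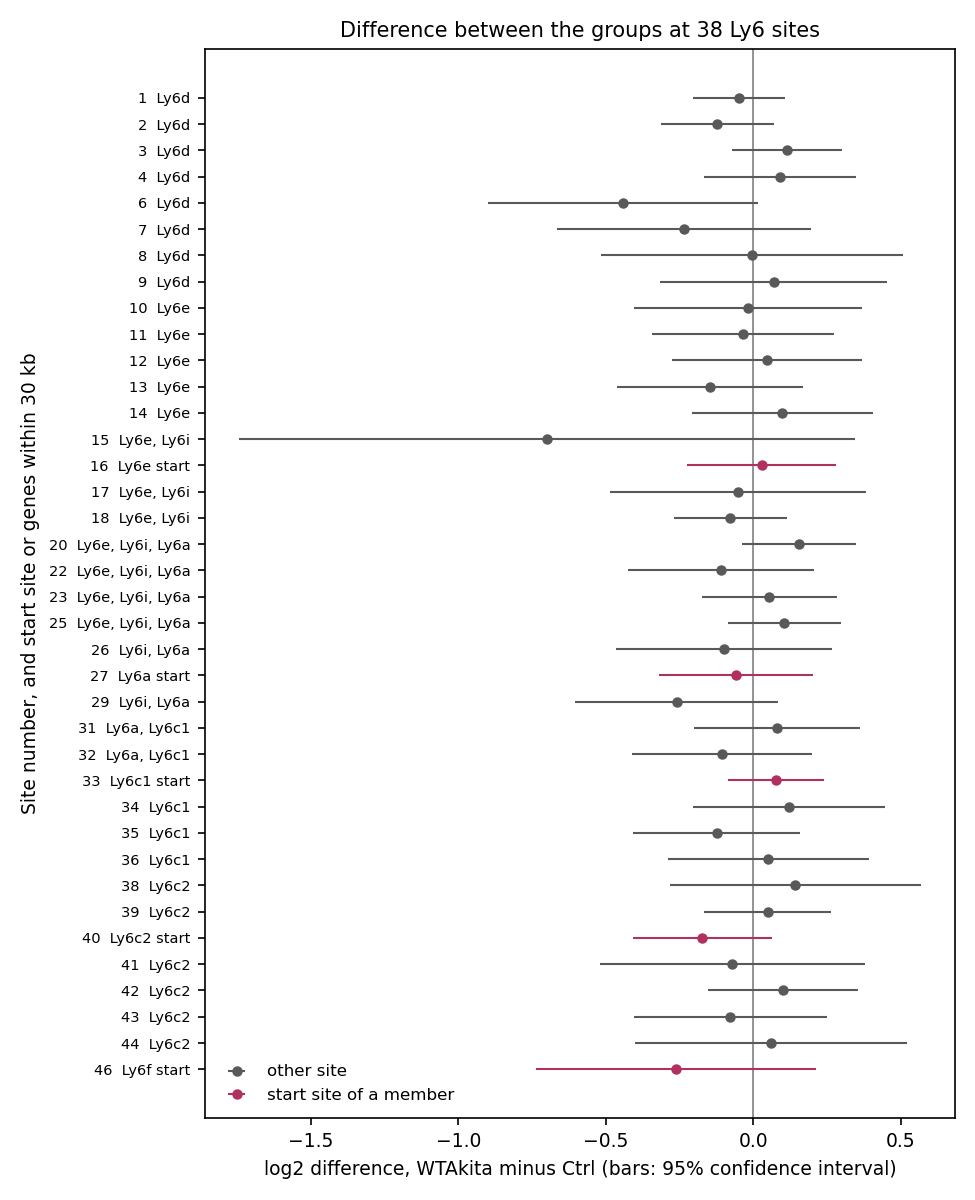
Difference between WTAkita and Ctrl (horizontal axis, normalized log2 fold enrichment) at each of the 38 Ly6 sites called in all libraries (vertical axis, in chromosomal order), with bars for the 95% confidence interval and start sites in red. Every interval holds 0, and the widest belongs to the site before the Ly6e start at which Ctrl replicate 1 had a wide peak.

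Copies of the promoter differed in accessibility across the cluster. The sequence of the Ly6a start site region had 15 copies, itself included, of which 8 carried a consensus site. These were at Ly6a, Ly6c1, Ly6c2, Ly6f and Ly6i and at the pseudogenes Gm5960, I830127L07Rik and 9030619P08Rik. The copy at 9030619P08Rik, 83.7% identical to that of Ly6a, had 17.1, 15.03 and 17.1 in Ctrl and 16.0, 15.6, 16.0 and 16.1 in WTAkita, above Ly6a in every library. The 7 copies without a site included that of Ly6g, 82.3% identical, with a peak in 1 of 7 libraries. Ly6g encodes the granulocyte antigen that the Gr-1 antibody binds, and its product was selected against in the sort. That antibody also binds the Ly6c products, and the copies at Ly6c1 and Ly6c2 had means of 17.3 and 13.1. Whether the sort bears on the accessibility of the copies was not tested. GAGGAAGT occurred in 7 of the 8 copies with a site and in 5 of the 7 without, so these letters did not separate them. Over the 46 sites of the cluster it occurred in 13 (28.3%) of 300-base windows on the summit, against 9.91% of all sites, and AP-1 letters (TGANTCA) in 1 (2.17%), against 11.0%. Copies of 1 sequence are not independent, so these shares are descriptions only.

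A duplicated distal element showed the same contrast. The strongest site between Ly6a and Ly6c1 (site 31, chr15:75019373-75019951, in an intron of Gm28068) had 14.8, 17.6 and 12.5 in Ctrl and 10.5, 15.8, 16.7 and 17.7 in WTAkita, and 11 copies lay in the cluster, itself included, 9 with a consensus site. The copy at Ly6c2 (chr15:75120080-75120437), 93.3% identical over its length, had 6.25 to 12.8 in the 7 libraries. A copy 94.5% identical near Gm28502, inside the Ly6c2 window, had a peak in 4 of 7, at 3.86 to 5.0. The 101 bases around the summit of site 31 are shown with those of both copies and of a copy 75.3% identical that had no peak in any library, with bases unlike site 31 in capitals:
Site 31, chr15:75019659-75019759: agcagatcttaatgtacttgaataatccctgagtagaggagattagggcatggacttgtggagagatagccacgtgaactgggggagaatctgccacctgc
Ly6c2 copy, chr15:75120258-75120356, minus strand: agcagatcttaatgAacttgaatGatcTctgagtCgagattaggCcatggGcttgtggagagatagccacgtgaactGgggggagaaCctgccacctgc
Gm28502 copy, chr15:75088144-75088249: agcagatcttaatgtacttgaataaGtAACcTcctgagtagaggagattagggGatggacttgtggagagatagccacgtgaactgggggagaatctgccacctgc
Copy with no peak, chr15:75406273-75406373: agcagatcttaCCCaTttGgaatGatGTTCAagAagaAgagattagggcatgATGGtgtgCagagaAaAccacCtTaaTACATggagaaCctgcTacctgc

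The Gm28502 copy kept 100 of the 101 bases, with 5 inserted, yet had the lower signal, while the Ly6c2 copy kept 91 and was open in all libraries. A further element near Ly6c1 (site 36, chr15:75062048-75062630) had 13 copies, itself included, 9 with a consensus site. The copy 95.03% identical at Ly6c2 (chr15:75118736-75119104) had 8.27 to 13.7, and a copy 93.3% identical near Ly6g had no peak in any library.

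**Figure D4:**
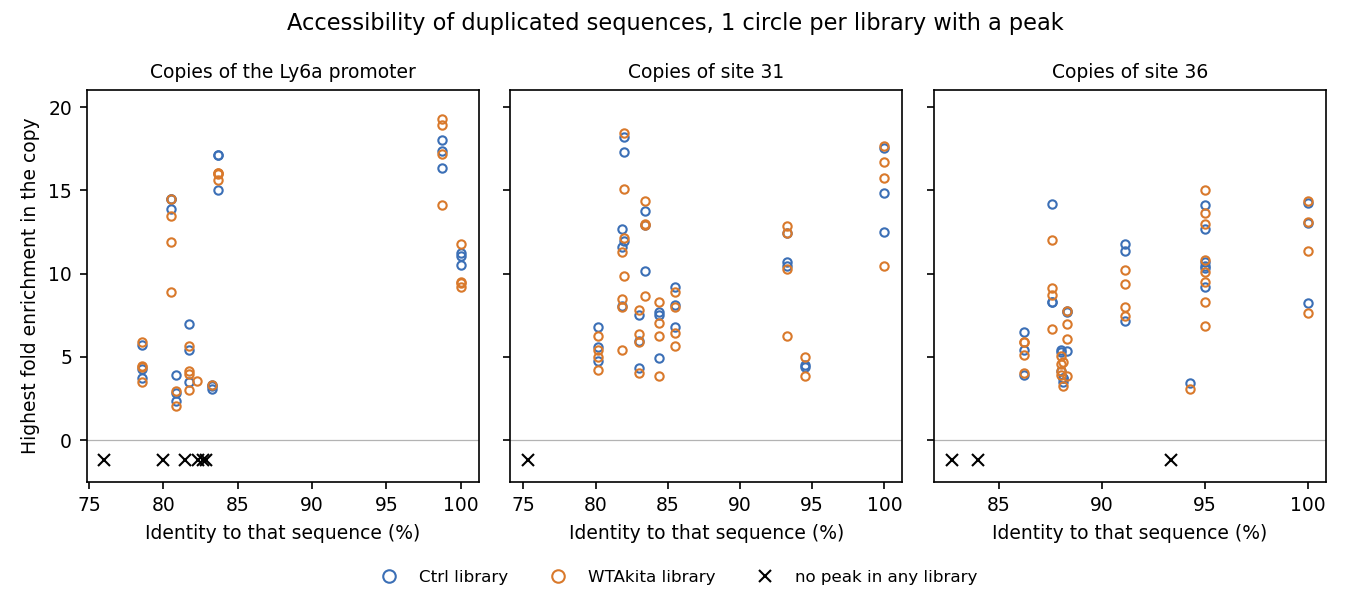
Highest fold enrichment of the peaks in each copy (vertical axis) against its identity in percent to the Ly6a promoter, to site 31 or to site 36 (horizontal axis), with 1 circle per library with a peak, Ctrl in blue, WTAkita in orange, and crosses under the line for copies without a peak in any library. Copies of similar identity range from no peak to over 15.

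Sites near the edge of the 30 kb window included a copy of site 36 just outside it, 30133 bp from Ly6c2, at 6.86 to 15.03, and inside it a site 28265 bp from Ly6e, at 3.51 to 5.35. At start sites of other LY6/uPAR genes, 15 of 32 annotated genes had a consensus site (46.9%), against 73.6% of protein-coding genes. The strongest was Cd59a, a complement inhibitor, at 17.9 ± 1.34 (SD, n = 7), and those without a site were Ly6g, Ly6k, Ly6l, Ly6g6f, Ly6g5c, Slurp2, Lypd2, Lypd5, Lypd8, Lypd9, Psca, Gpihbp1, Gml, Gml2, Spaca4, Tex101 and Acrv1. Lynx1 lies in the Ly6d window, and its consensus site was also counted among the Ly6 sites. All 24 annotated GPI anchor genes had one, Piga, which starts anchor synthesis, at 20.5 ± 1.20. Of the antigens of the sort, 16 of 18 had one, with Ly6g and Cd8a without. In these lists 0 of 13, 0 of 24 and 0 of 16 tested genes passed limma at an adjusted p under 0.05 (0% of all sites), and none at an unadjusted p under 0.05 (3.73% of all sites). The median differences were 0.01, 0.00 and 0.07, where that of all start sites was 0.03. Farthest from 0 were Ly6h at 0.20 and Ly6g6d at -0.24 among the LY6/uPAR genes, Pigz at 0.09 and Pigk at -0.10 among the GPI anchor genes, and Slamf1, the CD150 antigen, at 0.28 and Cd3e at -0.22 among the antigens.

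Markers of the sorted cells and of other lineages were checked in the same way. All 10 LSK markers had a start site peak, Kit at 13.1 ± 1.23 and Cd34 at 14.5 ± 1.19 (SD, n = 7). The lowest of these was Gata2, at 3.87 ± 0.44. Of 8 granulocyte and monocyte markers 3 had one, and Ly6g, S100a8, S100a9, Ngp and Camp had none. Those with a peak were Ltf at 15.4 ± 1.47, Itgam at 10.3 ± 0.43 and Csf1r at 3.43 ± 0.43. B and T cell markers had one at 4 of 5 each, erythroid markers at 5 of 5 and megakaryocyte markers at 4 of 4, so open start sites did not separate these lineages. Of the markers tested, 1 had an unadjusted p under 0.05, a share near the 3.73% of all sites. This was Bcl11b, a T cell factor (difference -0.33, limma adjusted p = 1.00).

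As a description over 7 libraries, the genes, coding and noncoding, whose normalized start site value was most like that of Ly6a were Gm32351 (Pearson r = 0.99), D930032P07Rik (0.99), Tcea1 (0.98), Fbxl7 (0.98) and Ece1 (0.98), the highest among 22471 genes. The members had r of -0.42 (Ly6c1), -0.24 (Ly6c2), -0.47 (Ly6e) and -0.58 (Ly6f).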

How the data were processed

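ATAC-Seq peak lists of 7 LSK libraries were used. The authors used Trim Galore 0.4.2 with cutadapt 1.9.1 for trimming and Bowtie2 2.3.4.1 for alignment to mm10. After duplicate removal, MACS2 (2.1.4 in the submitters' processing notes) was run by the authors separately on every library without an input sample, extending cut sites to 150 bp and allowing several summits in a peak. Fold enrichment as deposited is a ratio, summit pileup plus 1 over local background plus 1, and this background rises where neighboring signal is high. The −log10 p-values and q-values deposited with it concern the same pileup and depend on depth. The deposited score was not used further.

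Lines with the same start and end were counted as 1 peak. Consensus sites were intervals covered by peaks in 75% or more of a group's libraries and at least 50 bp long, joined between groups at 50% overlap, and a peak belonged to a site when it shared 50% of the shorter of both. Where several peaks belonged, the highest fold enrichment was taken. The summit pileup was solved from the fold enrichment and the −log10 p-value, and lay within 0.05 of a whole number for 99.999% of the peaks. Depth shows in the median summit pileup of 39 to 53 reads. Total read numbers are not in the peak lists, so depth limits how small a difference can be seen. No pair of libraries agreed within sampling noise (mean chi-square of summit pileups 1.48 to 2.25), so none was treated as 1 library deposited again. This does not show that they came from separate animals.

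Log2 fold enrichment was quantile-normalized. WTAkita was compared with Ctrl by limma 3.58.1 (trended variance, R 4.3.3), and p-values were adjusted over all sites by Benjamini-Hochberg. The script was checked on simulated data. The study tested read counts, which peak lists do not hold. Genes came from GENCODE for mm10 and sequences from RefSeq GRCm38, with the same length of chromosome 15. Ly6a, Ly6d, Ly6e and Ly6i had no matched RefSeq promoter window. The genome sequence of the Ly6a start site region was the query for its copies. Copies were found with BLAST 2.17.0 (E-value under 1e-10, at least 50% of the sequence). Tables used Python 3.11.15, pandas 2.3.3 and scipy 1.17.1.

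The members, the gene lists and the motifs were chosen with earlier results of these data known. Named sites were, for each gene, the site nearest its start, its strongest site, and any at an unadjusted limma p under 0.05 or without overlap of the groups. From each of the 3 gene lists the member farthest above 0, the one farthest below and those without a site were named. Copies, the summed pileup of Ly6a and Ly6c1, the wide peak near Ly6e, the intronic Ly6i site, the wide site between Ly6i and Ly6a, the site upstream of Ly6d, Cd59a, Piga and the lineage markers named were singled out after the values were seen. Alternatives covered the value of a site, the normalization, the peak threshold, the overlap, low values, the replicate block, the window and each library left out in turn.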

Additional observations from a re-analysis of the deposited data

Results flagged for a closer look

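Fold enrichment in the 4 WTAkita libraries was screened for a library far from the other 3 at each of the 38 Ly6 sites tested and for the number of peaks, 39 screens in all. Chance alone flags about 1 in 20 of such groups, and 4 were flagged. Groups of 3 were not screened. At the Ly6a start site (chr15:74997697-74998253) WTAkita replicate 4 stood above the others, with a gap of 0.877 of the range. At chr15:74926643-74927152, upstream of Ly6e, WTAkita replicate 3 was high, with a gap of 0.924 of the range. At chr15:74928882-74929142, also upstream of Ly6e, replicate 4 was high, with a gap of 0.852. At chr15:74960798-74961152, downstream of Ly6e, replicate 1 was low, with a gap of 0.886. WTAkita replicate 1 also had the lowest median fold enrichment of its peak list, at 5.25, and stood farthest from the other libraries on the first principal component of all sites. The part of that library in the value was not tested.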

How the results depend on the processing

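Over 15 alternatives, no Ly6 site had an adjusted p under 0.05 from limma, the smallest being 0.842 with the replicate block. At an unadjusted p under 0.05, the count of 0 sites became 1 with values from peaks whose summit lay in the site (chr15:74769081-74769682, near Ly6d), 1 with summit pileup over background (chr15:74954316-74954756, before the Ly6e start) and 1 with the replicate block (chr15:75060544-75060910, near Ly6c1). With each library left out in turn it ranged from 0 to 2, with 2 without Ctrl replicate 3 (near Ly6d and before the Ly6e start), 1 without Ctrl replicate 2 (chr15:74968165-74968696) and 1 without WTAkita replicate 2 (near Ly6d), and 0 without each of the others. The background share moved between 1.42% and 5.78% over the alternatives, and up to 125 of all sites had an adjusted p under 0.05, the most by summit pileup, none of them among the Ly6 sites. The cause was not tested.

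The difference at the Ly6a start site kept its sign except without WTAkita replicate 3 and ranged from -0.123 to 0.0155 with libraries left out. It was -0.22 by summit pileup, a scale on which the median of all sites was -0.12. The Ly6a and Ly6c1 sum, which was added with the data in view, gave -0.08. At Ly6e the difference was -0.13 by summit pileup, close to the median of all sites on that scale, and with libraries left out it ranged from -0.051 to 0.0996. Signs at Ly6c1, Ly6c2 and Ly6f did not turn. The difference in peak number, -2.42 over all libraries, was -0.83 with peaks of −log10 p of 5 or more, 0.50 within 10 kb of the genes and -0.83 in their bodies, and -4.25 to 0.25 with libraries left out.

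The replicate numbers pair nothing in the labels. The deviations of same-numbered libraries correlated at 0.19, 0.01 and 0.06 for replicates 1, 2 and 3. Whether same-numbered libraries share a batch was not tested. With the replicate block, the Ly6a difference was -0.08. The widest interval belonged to the site before the Ly6e start. Some sites with a low pileup also had wide intervals, such as the Ly6f start site (14 to 27 reads, -0.74 to 0.21). A site with more reads, chr15:75085413-75085865 (59 to 171), had an interval of -0.28 to 0.57. Whether width follows pileup was not tested.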
